A study of Mus musculus with 2 samples.

Results

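The TCF/LEF family of the mouse has 4 genes, Tcf7, Lef1, Tcf7l1 and Tcf7l2, and Lef1 binding at these genes is described here from one list of peaks. A peak was taken as belonging to a family gene when any of its bases lay inside the gene or within 50 kb of either end, on the mm10 build. By this rule 9 of the 2052 listed peaks belonged to the family. Of the 4 genes, 3 had at least 1 peak (Tcf7, Lef1 and Tcf7l2) and 1 had none (Tcf7l1).

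Proteins of the family bind DNA through an HMG box, a domain that recognises a short sequence with the core CTTTG and bends the helix. They recruit β-catenin, which can activate their targets when Wnt signals stabilise it, or Groucho/TLE corepressors, which keep targets off. Tcf7, which encodes Tcf1, and Lef1 are the members best known in T cells, where they act in thymocyte development and in naive, follicular helper and memory cells. Tcf7l1 is best known as a repressor in embryonic stem cells, and Tcf7l2 as a factor of the gut epithelium and of metabolism.

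The wild-type library came from conventional CD4+ T cells (TCRb+, CD4+, CD25-) sorted from spleens of C57BL/6 mice aged 8 to 10 weeks, for which the series' text also names a GFP-negative gate. The background library came from Lef1-deficient CD4+ T cells (TCRb+, CD4+) of CD4-Cre+ Lef1 fl/fl mice, in which Cre under control of Cd4 sequences deletes a floxed part of Lef1 in cells that pass through the stage of Cd4 expression. Both were immunoprecipitated with the same anti-Lef1 antibody and sequenced (ChIP-seq), and both carry the tissue label of naive CD4 T cells, although the background cells are also labelled as all CD4 T cells and have no CD25 gate in their label. With 1 library of each kind and no replicate, no value below has an error between replicates and none was tested, and the deposited list holds no expression values against which to check the cell labels.

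Each listed peak has a position and a score, which is the −log10 of the authors' peak-calling p-value for the wild-type library over the Lef1-deficient one. Scores ran from 4.01 to 38.17 over the list with a median of 4.40, and widths from 55 to 1141 bp with a median of 79 bp. Depth is unknown for both libraries. Which calls were left out of the list is not known beyond its lowest score, so a gene without a listed peak is one with none in this list.

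Promoter windows, of 250 bases before and 50 bases after a RefSeq start (GRCm38.p6), were given for 9 starts of the family: 4 of Lef1, 2 of Tcf7, 2 of Tcf7l2 and 1 of Tcf7l1. No listed peak overlapped any of these 9 windows. The 2 Tcf7 starts, at 52283014 and 52282595, lie inside the annotated 5′ end of that gene at 52283383, which has no window in the table and which a listed peak does cover. Over the chromosomes in the start table, 13.1% of all peaks overlapped a window of some gene. The sequence under the peaks themselves was not used here. The bases before 4 of the starts are shown, 5′ to 3′ on the strand of the gene, because the Lef1 start at 131112791 lies close to an intragenic Lef1 peak, the Lef1 start at 131156294 and the Tcf7l2 start follow a full TCF/LEF motif, and Tcf7l1 is the family gene without a peak. Capitals mark that motif where there is one, and otherwise the core CTTTG or its reverse complement CAAAG.
Lef1, before the start at 131112791 (chr3:131112541-131112790, plus strand): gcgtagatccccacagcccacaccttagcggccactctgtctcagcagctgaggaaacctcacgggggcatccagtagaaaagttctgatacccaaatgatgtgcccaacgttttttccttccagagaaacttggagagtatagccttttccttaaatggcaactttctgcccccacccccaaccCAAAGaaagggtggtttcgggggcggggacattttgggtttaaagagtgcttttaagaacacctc
Lef1, before the start at 131156294 (chr3:131156044-131156293, plus strand): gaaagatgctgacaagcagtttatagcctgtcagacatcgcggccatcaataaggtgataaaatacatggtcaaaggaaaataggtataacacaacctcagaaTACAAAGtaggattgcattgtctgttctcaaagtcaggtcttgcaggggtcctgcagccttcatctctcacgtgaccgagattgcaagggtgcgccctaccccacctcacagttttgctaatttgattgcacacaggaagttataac
Tcf7l1, before the start at 72789045 (chr6:72789046-72789295, minus strand): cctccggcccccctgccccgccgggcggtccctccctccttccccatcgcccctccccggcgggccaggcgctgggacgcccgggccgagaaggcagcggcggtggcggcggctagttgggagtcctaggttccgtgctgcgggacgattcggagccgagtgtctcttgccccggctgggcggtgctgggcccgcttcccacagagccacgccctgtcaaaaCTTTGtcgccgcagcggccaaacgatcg
Tcf7l2, before the start at 55895321 (chr19:55895071-55895320, plus strand): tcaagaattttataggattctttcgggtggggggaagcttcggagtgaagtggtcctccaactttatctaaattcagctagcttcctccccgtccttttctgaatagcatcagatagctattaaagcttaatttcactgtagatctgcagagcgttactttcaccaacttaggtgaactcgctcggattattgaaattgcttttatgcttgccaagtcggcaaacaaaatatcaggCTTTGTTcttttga

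The motif was CTTTGAA or CTTTGAT or CTTTGTA or CTTTGTT, searched on both strands. It occurred in 2 of the 9 windows of the family (22.2%), against 5544 of the 32851 windows of all genes (16.9%). In the Lef1 window at 131156294 it was read as TACAAAG, with its first base 147 bases before the start, and in the inner Tcf7l2 window as CTTTGTT, beginning 14 bases before the start. The core alone was in 7 of 9 windows of the family and in 53.9% of all windows. Neither of the 2 Tcf7 windows held the core. Base composition was not matched. The Lef1 and Tcf7l2 windows with the motif were 43.7 and 42.0% G or C, and the Tcf7 windows 76.3 and 64.3%. The median over all windows was 52.7%. Windows of a single gene can overlap, as 2 of Lef1 do, and a match is a description of these letters only.

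Tcf7 had 4 peaks within 50 kb, at its 5′ end and upstream of it, against 3 at Lef1 and 2 at Tcf7l2. This order depended on how peaks were counted: Tcf7 and Lef1 had 3 each when peaks within 1 kb were merged and when only peaks above the median score were kept, and Lef1 had more within 10 kb (3, against 2 at Tcf7) and within 100 kb (5, against 4). The gene spans 52246527 to 52283383 on chromosome 11 and is read from the high coordinate to the low one. One peak, at 52283322 to 52283412, covered the 5′ end of the gene itself, with 62 of its 91 bp inside the annotated body. Its score was 4.40 (4.40478 before rounding), only just above the median of the list. It is 1 of the 3 Tcf7 peaks counted above the median. Its centre was 353 bp upstream of the nearest listed RefSeq start, and its edge was 58 bp from the promoter window of that start. A further peak, at 52284335 to 52284490 (156 bp), lay 952 bp outside the gene with a score of 5.53. These lay 922 bp apart and may be parts of a single site.

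The other Tcf7 peaks formed a distal upstream pair. At 52309467 to 52309641 a peak of 175 bp lay 26.1 kb beyond the 5′ end, with a score of 4.08 that 76 peaks of the list share. At 52314059 to 52314695 a peak of 637 bp lay 30.7 kb beyond it, with a score of 6.68, the highest at this gene. Only 1 other peak of the list was as wide or wider, so the distal Tcf7 peak was the second widest of the 2052. Both distal peaks lay inside Gm30217, a long non-coding RNA gene, and Tcf7 was nevertheless the nearest protein-coding gene to each. No peak lay in the body of Tcf7 beyond its 5′ edge, or on the 3′ side, where Skp1, an adaptor of ubiquitin ligases, overlaps its end.

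Lef1 had 3 listed peaks at its own gene, of which the one outside the gene scored highest. Lef1 spans 131110297 to 131224357 on chromosome 3 and is read from the low coordinate to the high one. The upstream peak, at 131105853 to 131106225, was 373 bp wide, scored 7.65 and ended 4.07 kb before the gene; 94.4% of the list scored lower. It lay inside Gm36603, a long non-coding RNA gene annotated on the opposite strand.

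The other 2 peaks lay inside Lef1 and were both 55 bp wide, the shortest width in the list. One, at 131112055 to 131112109, scored 4.80. It lay 1.78 kb into the gene, and its centre was 709 bp upstream of the RefSeq start at 131112791 whose preceding bases are given above. The other, at 131190812 to 131190866, scored 5.41 and lay 70.6% of the way along the gene, 34.5 kb downstream of the nearest listed start. In all, 110 peaks (5.36%) had this width, with a median score of 4.40, and 19 of them scored at least 4.80 and 7 at least 5.41. Which part of Lef1 the background cells lack is not given in the sources used here, so at the sites of this gene binding in wild-type cells and loss of background reads with the deleted DNA cannot be told apart.

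Tcf7l2 had 2 peaks, both inside the gene, and the highest score of the family. Tcf7l2 spans 55741797 to 55933659 on chromosome 19 and is read from the low coordinate to the high one. The peak at 55792536 to 55792921 was 386 bp wide and scored 13.29, at rank 14 of the whole list. It lay 26.5% of the way along the gene, 50.9 kb downstream of the outermost listed start. The second, at 55915562 to 55915731, was 170 bp wide and scored 5.63, a score shared by 34 peaks. It lay 90.6% of the way along the gene and 20.3 kb downstream of the inner start at 55895321, which is the one whose preceding bases hold CTTTGTT. The stretch between the 2 peaks was 123 kb.

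Tcf7l1 had no listed peak inside it or within 50 kb, although its 163 kb body made its searched stretch, of 263 kb, wider than those of Tcf7 (137 kb) and Lef1 (214 kb). The gene spans 72626371 to 72789045 on chromosome 6. The nearest listed peaks were 421 kb above it (score 4.99) and 993 kb below it (score 4.25). At the density of the whole list a stretch of this length would hold 0.2 peaks, and 84.5% of all protein-coding genes had none within 50 kb, so a count of 0 is the usual value for a gene.

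**Figure D1:**
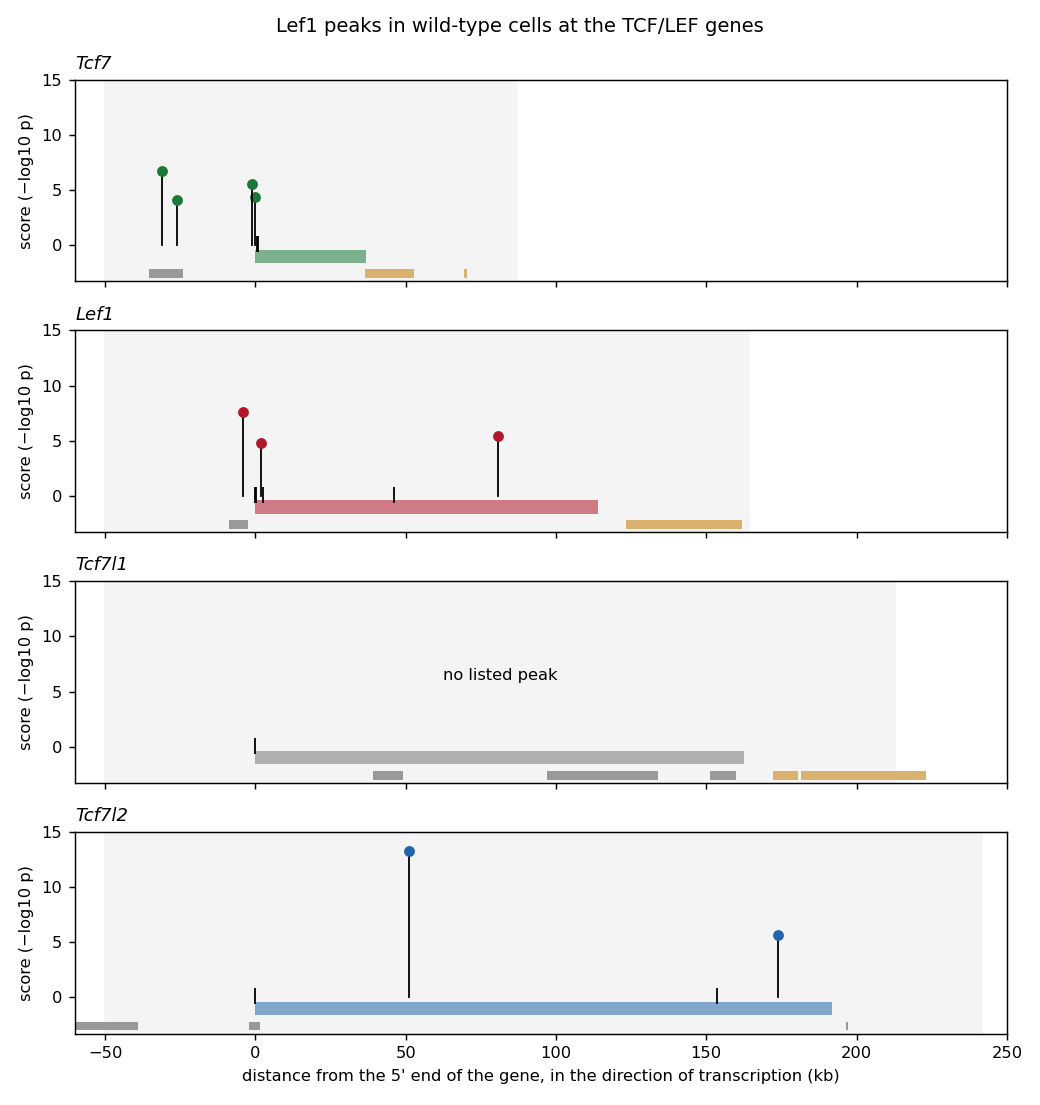
Listed Lef1 peaks at the 4 family genes, by distance from the 5′ end of each gene in the direction of transcription (kb), with the height of each stem giving the deposited score (−log10 p); shading marks the searched stretch, the coloured bar the gene, vertical ticks the RefSeq starts, grey bars long non-coding RNA genes and tan bars other protein-coding genes, while pseudogenes are left out. All 4 Tcf7 peaks sit at or left of its 5′ end, both Tcf7l2 peaks sit inside the gene, 1 Lef1 peak sits before and 2 inside it, and Tcf7l1 has none.

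The position of the peaks thus differed from gene to gene. Of the 9 peaks, 5 touched the body of the family gene and 4 lay outside it, all 4 on the 5′ side. Over the whole list 52.4% of peaks touched a protein-coding body. Of the 9, 2 had their centre within 1 kb of a listed start of the gene, against 380 of 1977 peaks (19.2%, 95% exact binomial interval 17.5 to 21.0%) within 1 kb of a protein-coding start on the chromosomes of the start table. Inside a long non-coding RNA gene lay 3 of the 9, against 230 of the 2052 (11.2%, 95% exact binomial interval 9.88 to 12.7%). These intervals cover counting error only, and neighbouring peaks are not independent.

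Each of the 3 genes with a peak had 1 wide peak that was also its highest-scoring one. The widths were 637 bp at Tcf7, 373 bp at Lef1 and 386 bp at Tcf7l2, and the scores 6.68, 7.65 and 13.29. Of the whole list, 39 peaks (1.90%) were 373 bp wide or more. Among all 21887 protein-coding genes, 0.329% had a peak of that width within 50 kb, and 0.0457% had one scoring at least as high as that of Tcf7l2. Both limits were taken from the family's own peaks, so the 3 genes pass the width limit by construction. The shares were not matched for searched length. The remaining 6 peaks of the family were 55 to 175 bp wide and scored 4.08 to 5.63.

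Scores at the family were spread over most of the range of the list below its extreme values. The lowest, 4.08 at Tcf7, had 1.61% of the list below it, and the highest, 13.29 at Tcf7l2, had 99.3% below it. The median over the 9 was 5.53, against 4.40 over the list, and 8 of the 9 scored above the median of the list, against 30.6% of all peaks. The median was also the most common score, shared by 828 peaks. One of the 8, the Tcf7 peak at 52283322, scored 4.40478, which also rounds to 4.40. It was at rank 628 of the 628 peaks above the median, so its place among the 8 rests on a very small difference. A score of at least 8 was reached by 1 of the 9, against 4.73% of all peaks. Across all 2052 peaks, which share both libraries, score and width were loosely related (Spearman's rho 0.26). The 637 bp peak of Tcf7 scored 6.68, below the highest score among peaks of 55 bp, which was 7.29.

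**Figure D2:**
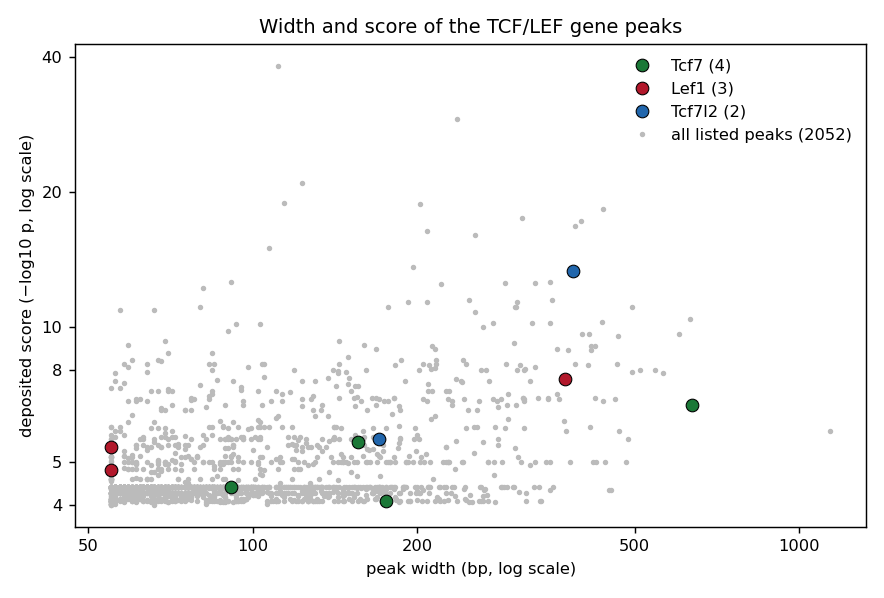
Width (bp, log scale) and deposited score (−log10 p, log scale) of the peaks of Tcf7, Lef1 and Tcf7l2 over all 2052 listed peaks in grey. One peak of each gene lies at 373 bp or more, the 2 intragenic Lef1 peaks lie at the shortest width, 55 bp, and the Tcf7l2 peak of 13.29 stands highest of the 9.

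The share of family genes with a peak was set beside that of all genes. Of the 4 genes, 3 (75%, 95% exact binomial interval 19.4 to 99.4%) had a peak within 50 kb, against 15.5% of the 21887 protein-coding genes. Longer genes offer more sequence, so the share was also taken over the tenth of genes nearest in searched length to each member. It was 17.5% for genes of the length of Tcf7, 21.0% for Lef1, 20.6% for Tcf7l1 and 20.9% for Tcf7l2. Inside the gene body alone 3 of the 4 had a peak, against 4.51% of all genes, a share not matched for body length. At Tcf7 this rested on the peak across its 5′ end, with 62 of its 91 bp inside and a score of 4.40. At Lef1 it rested on peaks of 55 bp, the shortest width, in the gene that is partly deleted in the background cells. The 4 genes were chosen with earlier results of these data known, so these shares are a description.

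Counts of peaks per gene were also set beside those of all genes, for peaks as listed and without matching for searched length. The median searched length of all genes was 117 kb, against 137 kb at Tcf7, 214 kb at Lef1 and 292 kb at Tcf7l2. At least 2 peaks, as at Tcf7l2, were found within 50 kb of 2.61% of protein-coding genes, at least 3, as at Lef1, within 0.375%, and at least 4, as at Tcf7, within 0.128%. That last share is 28 genes, of which 3 had 5 peaks: Def6 (highest score 7.38), Rapgef4 (5.03) and Cyth1 (4.99). Of those with 4, the highest-scoring were LOC665918 on chromosome Y (29.07), Satb1 (16.36), a chromatin organiser of T cells, and Tmem267 with its neighbour Ccl28 (12.22 for both, as genes that lie close together can share peaks). The family genes lie on different chromosomes, so no peak could be shared between them. Some of their peaks also fell within 50 kb of a neighbour. The Tcf7 peaks at 52283322 and 52284335 did so for Skp1, and the Lef1 peak at 131190812 for Hadh. Each peak of the family had its member as the nearest protein-coding gene.

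**Figure D3:**
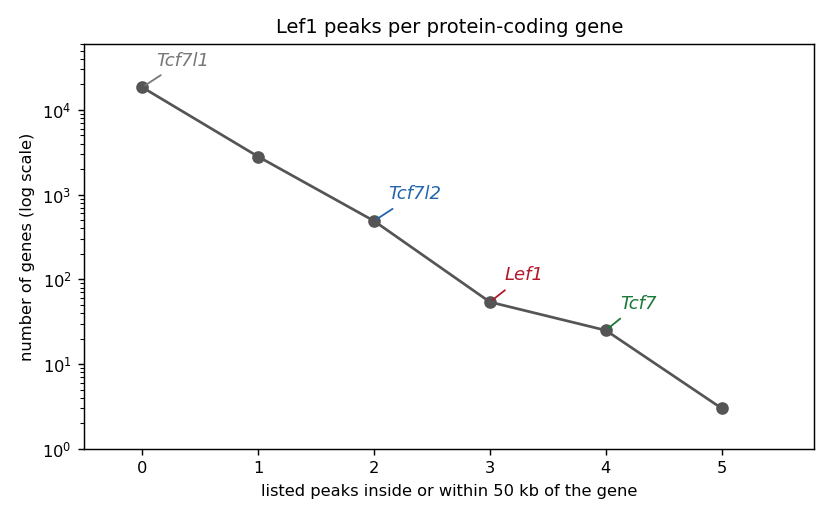
Number of protein-coding genes (log scale) by the number of listed peaks inside or within 50 kb of them, with the 4 family genes marked at their own counts. Tcf7l1 stands with the 18503 genes at 0 peaks, Tcf7l2 with 489 genes at 2, Lef1 with 54 at 3 and Tcf7 with 25 at 4.

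Per length, the 4 searched stretches together held 9.94 peaks per Mb (95% exact Poisson interval 4.55 to 18.9), against 0.989 per Mb (0.942 to 1.04) over the stretches of all protein-coding genes, a ratio of 10.1. Tcf7 had 29.2 peaks per Mb (7.96 to 74.8), Lef1 14.0 (2.89 to 41.0) and Tcf7l2 6.85 (0.83 to 24.8). The intervals of the 3 genes overlap, so their order is not separated by counting error. Without Tcf7 the remaining 3 stretches held 6.51 per Mb (2.11 to 15.2), a ratio of 6.58. Both ratios include the 3 Lef1 peaks, where binding and loss of background reads with the deleted DNA cannot be told apart.

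Genes that work with the family were looked at within the same 50 kb, to show how far its peaks extend to the pathway. These shares were not matched for searched length, of which the median was 147 kb for cofactor genes and 117 kb for all genes. Of 22 cofactor genes, 5 had a peak within 50 kb and 17 had none, a share of 22.7% against 15.5% of all genes. With peaks above the median score alone 1 of the 22 had a peak, against 5.84% of all genes. The 5 with any listed peak included Hdac1, a histone deacetylase (highest score 4.67), and Nlk, a kinase that phosphorylates TCF/LEF proteins (4.40). The rest were Crebbp, a histone acetyltransferase (4.40), Ctnnb1, which encodes β-catenin (4.25), and Smarca4, a chromatin remodelling ATPase (4.14). The peaks at Hdac1 and Crebbp were nearer to Fam167b and Dnase1. None of the 5 reached the highest score of any family gene with a peak.

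Other genes with an HMG box had a peak within 50 kb at 5 of 22, again 22.7% against 15.5%. Their median searched length was 123 kb. With peaks above the median score alone 1 of the 22 had a peak, against 5.84% of all genes. The 5 with any listed peak included Smarce1, a subunit of the SWI/SNF chromatin remodeller (4.83), Sox13 (4.40) and the repressor gene Hbp1 (4.40). The rest were Hmgb1, which encodes an abundant chromatin protein (4.25), and Cic, a repressor gene with 2 peaks inside it (4.14). The Smarce1 peak was nearer to Ccr7, and that of Sox13 to Etnk2. Tox, Sox4 and the other 15 had none.

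Feedback genes of the Wnt pathway had a peak within 50 kb at 5 of 12 (41.7%), against 15.5% of all genes. Their median searched length was 136 kb. With peaks above the median score alone 3 of the 12 had a peak, against 5.84% of all genes. The 5 with any listed peak included Znrf3, which clears Wnt receptors from the cell surface (12.52), and Axin2, which holds together the complex that degrades β-catenin (5.86). The rest were Rnf43, a relative of Znrf3 with 4 peaks in its stretch (4.64), Dkk1, a secreted inhibitor (4.40), and Sp5, a transcription factor (4.08). Of the 4 Rnf43 peaks, 3 touched its body, but the highest lay 14.2 kb outside it and was nearer to Supt4a. The Sp5 peak was nearer to Myo3b. Of these 3 lists, which hold 56 genes, only Znrf3 had a peak that scored above the highest peaks of Lef1 and Tcf7. The exact binomial intervals of the 3 lists (7.82 to 45.4% for both lists of 22, and 15.2 to 72.3%) overlap with that of the 4 family genes. Genes of the lists and the family were chosen with earlier results known, so this overlap is a description and not a test.

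**Figure D4:**
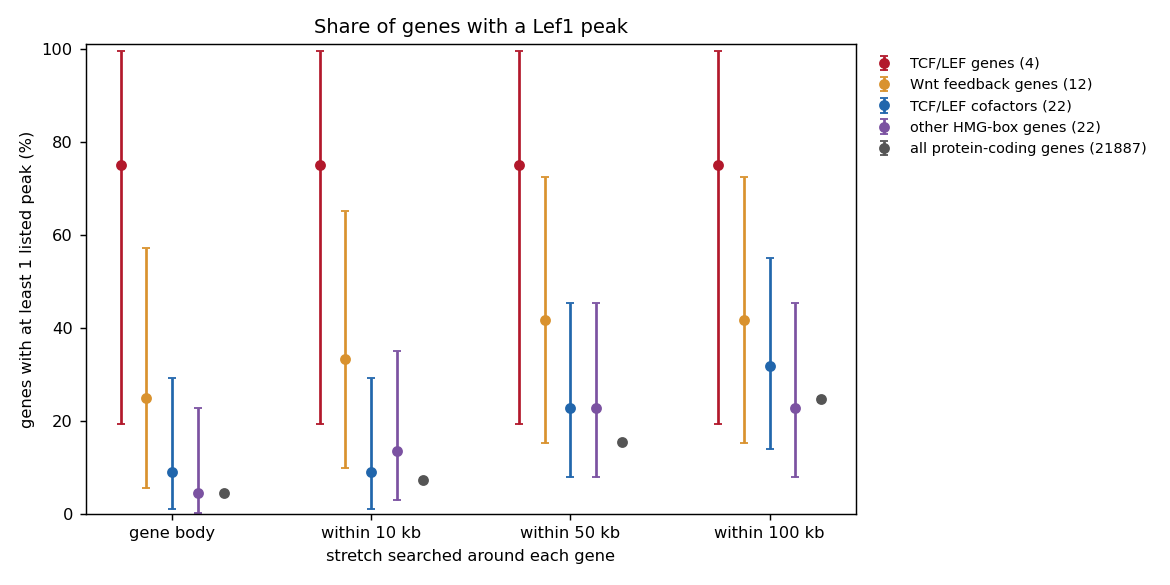
Share of genes with at least 1 listed Lef1 peak (percent) inside the body or within 10, 50 or 100 kb of it, for the TCF/LEF genes, 3 related lists and all protein-coding genes; bars are 95% exact binomial intervals over genes and cover counting error only. The family stays at 3 of 4 in every stretch, while the share over all genes is 4.51% in the body and 24.6% within 100 kb. The stretches are nested, so a gene with a peak in its body has 1 in each wider stretch.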

How the data were processed

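Lef1 ChIP-seq of 1 wild-type and 1 Lef1-deficient library was analysed from the 1 deposited peak list. Its score is a −log10 p-value per the file headers, deposited by the authors. Per the submitters' processing notes, MACS2 2.1.1, Bowtie2 2.3.4.1, FastQC and the build mm10 were used, with parameters not stated, and the Lef1-deficient library served as the control of the calls per the labels. Filters on the calls were not given in the sources used here. Scores thus depend on the coverage of both libraries, and their depth is unknown.

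Starts were raised by 1 to be 1-based, assuming BED coordinates; if that is wrong, starts are 1 base too high. Genes were the 21887 protein-coding genes of the autosomes, X and Y in a RefSeq table (GRCm38.p6, which is mm10). Strands, starts and sequences came from RefSeq promoter windows of 300 bases (GRCm38.p6), which do not cover every gene. All 4 members and all 56 genes of the 3 lists matched by symbol. Peaks were counted with Python 3.11.15 and SciPy 1.17.1, and the counting was tested on simulated peaks. Named were all members with each peak, list genes with a peak, at most the 6 highest per list, and up to 6 genes with as many peaks as the member with most. The members and lists were chosen with earlier results of these data known. No test was run. Alternatives were other windows, score limits, merged peaks, peak centres, nearest genes and the core motif.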

Additional observations from a re-analysis of the deposited data

How the results depend on the processing

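The number of family genes with a peak stayed at 3 under every alternative except peaks with a score of at least 8, which left 1 gene (Tcf7l2), 1 peak and 1.10 peaks per Mb. The windows are nested around the gene body, where 3 genes had a peak, and the nearest listed peak to Tcf7l1 lay 421 kb away. The count over the windows was thus fixed by that in the body. The 9 peaks became 5 in gene bodies alone. They were 7 within 10 kb, where Tcf7 kept 2, and 11 within 100 kb, where Lef1 had 5. Merging within 1 kb or peaks above the median score left 8. Those above the median include the Tcf7 peak at 52283322, whose score rounds to the same 4.40 as the median. The share of all protein-coding genes with a peak, 15.5%, was 4.51% in bodies, 7.33% within 10 kb, 24.6% within 100 kb, 5.84% with peaks above the median score and 0.932% with scores of at least 8. The related lists together had 15 genes with a peak, but 9 within 10 kb and 5 with peaks above the median score; by list these were 2 cofactor, 3 HMG-box and 4 Wnt genes within 10 kb, and 1, 1 and 3 above the median score. The core in place of the motif was in 7 family windows, against 2. Tcf7 had the most peaks within 50 kb as listed, but Lef1 had as many with merged peaks and with peaks above the median score, and more within 10 and 100 kb and in bodies (2, against 1). The motif search in widened peaks was not run, for lack of a genome sequence. No paired analysis was possible because there is 1 library per group; for the same reason no replicate could be left out.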

Other observations

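The names of the listed peaks carry numbers up to 33876, of which the list holds 6.06%, and on all 21 chromosomes the numbers rise with position. If every number stood for a call, the numbers missing between listed peaks count calls that the list leaves out. The 4 peaks of Tcf7 were numbered 4830 to 4833 without a gap, so no number was missing between them over 31.4 kb. Of all listed peaks, 77.7% had no listed neighbour in number, and only 8 runs of at least 4 consecutive listed numbers occurred, 2 of them on chromosome Y and 1 each near Rnf43 and Il6st. At Lef1 no number was missing between the upstream peak and the first intragenic one, 20768 and 20769, and 2 were missing between the intragenic ones, 20769 and 20772. At Tcf7l2 3 numbers were missing between the 2 peaks. Around Tcf7l1, 28 unlisted numbers lay between the nearest listed peaks on either side; how many of them lay within 50 kb of the gene is not known.

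Outside the 50 kb limit, the nearest listed peaks to Lef1 lay 96.3 kb below the gene (4.09) and 93.3 kb above it (4.40).

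Over all genes, the TCF/LEF motif was in 84 of the 312 promoter windows that a listed peak overlapped (26.9%, 95% exact binomial interval 22.1 to 32.2%), against 16.9% of all windows (16.5 to 17.3%). The core alone was in 55.8% (50.1 to 61.4%) and 53.9% (53.4 to 54.5%). Windows of a single gene can overlap, and base composition was not matched.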
